A study of Mus musculus with 6 samples.

Results

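The JAK kinases and STAT factors described here are 9 genes, the kinases Jak1, Jak2, Jak3 and Tyk2 and the transcription factors Stat2, Stat3, Stat5a, Stat5b and Stat6. They were taken by symbol from a table of 49492 genes, where all 9 were found, and each was expressed highly enough to be tested. The cells were RAW264.7, a mouse macrophage line, transfected for 48 h with 50 nM of an siRNA against Ep300 (3 libraries, labelled Ep300 silenced) or of a control siRNA (3 libraries, labelled WT). Both groups thus carried an siRNA and its transfection reagent, and both came from 1 cell line. Ep300 encodes p300, a lysine acetyltransferase that many transcription factors, STATs among them, recruit as a coactivator. The question put to these libraries was which macrophage mRNAs differ once Ep300 is silenced.

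JAK kinases are bound to the cytoplasmic tails of cytokine receptors, and a bound cytokine brings them together so that they phosphorylate each other, the receptor and then a STAT. The phosphorylated STATs form dimers and enter the nucleus, where most bind a palindrome called GAS, while STAT2 binds the interferon-stimulated response element (ISRE) together with IRF9 and a partner STAT, as the complex ISGF3. In macrophages this relay carries the signals of interferons, of the interleukin-6 and interleukin-10 families, of interleukin-4 and of the colony-stimulating factor GM-CSF. mRNA was measured here, not the phosphorylation by which the relay is switched on.

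Total counts ranged from 29993567 to 45377510 per library. Whether libraries of 1 group were grown as separate cultures is not in the labels, and the spread behind the p-values may therefore be technical. Pairs of libraries within a group differed beyond sampling noise, with chi-square values of 8.43 to 29.6 per degree of freedom. Ep300 had 51.1, 59.0 and 55.0 CPM (counts scaled to library size by the TMM method) in Ep300 siRNA libraries, against 106.8, 115.3 and 118.4 CPM in control siRNA libraries, so the libraries matched their labels. Ep300 siRNA replicate 1 had the most extreme score on principal component 1 and had the highest level of Gm42418, whose locus covers ribosomal RNA sequence (5823 CPM, against 1327 to 2174 CPM elsewhere). Of 12 macrophage markers, 11 were high enough to test, and their summed level was 13105 to 14003 CPM in Ep300 siRNA libraries and 11778 to 13540 CPM in control siRNA libraries. The efferocytosis receptor Mertk was the marker too low to test. The 20 markers of other cell types summed to 1.30 to 1.97 CPM in Ep300 siRNA libraries and 1.79 to 2.15 CPM in control siRNA libraries, and 6 of them had no count in any library, among them Cd8a of T cells and Ly6g of neutrophils.

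Taken per length, the 9 genes spanned a wide range of levels. Levels were computed as TPM (a gene's length-corrected share of a library, from counts per kilobase of the union of its exons), the scale on which genes can be compared. Stat6, which carries interleukin-4 signals, was the most abundant at 99.9 ± 1.001 TPM in Ep300 siRNA cells and 94.9 ± 5.28 TPM in control siRNA cells (SD, n = 3 each). Jak1, the kinase shared by most of these receptors, followed at 84.6 ± 1.13 TPM in Ep300 siRNA cells and 77.4 ± 0.503 TPM in control siRNA cells. Next came Stat2 at 73.9 ± 16.8 TPM in Ep300 siRNA cells and 52.6 ± 9.19 TPM in control siRNA cells. Its values ranged more widely than those of its neighbours in the order. Jak2 had 40.3 ± 2.35 TPM in Ep300 siRNA cells and 44.3 ± 1.83 TPM in control siRNA cells.

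The other five were lower. Stat3 had 17.7 ± 0.589 TPM in Ep300 siRNA cells and 15.4 ± 2.16 TPM in control siRNA cells, and Tyk2 had 12.7 ± 1.19 TPM in Ep300 siRNA cells and 12.1 ± 0.688 TPM in control siRNA cells. Stat5b had 11.4 ± 0.526 TPM after Ep300 siRNA and 11.8 ± 0.649 TPM after control siRNA. Stat5a had 3.48 ± 0.0773 TPM after Ep300 siRNA and 3.21 ± 0.165 TPM after control siRNA. Jak3 had 2.84 ± 0.489 TPM after Ep300 siRNA and 3.35 ± 0.379 TPM after control siRNA. Jak3, the lymphoid partner of the common gamma chain, was thus present at a low level in this macrophage line. Between neighbours in this order, the ranges over the 6 libraries were apart for 3 of 8 pairs, Stat6 above Jak1, Jak2 above Stat3 and Stat5b above Stat5a. For Stat2 and Jak2, and for Tyk2 and Stat5b, the upper gene was higher in 5 of 6 libraries, and for Stat5a and Jak3 in 4 of 6. With the longest coding transcript as the length, Jak1 stood above Stat6, at 129.0 against 120.5 TPM in Ep300 siRNA cells.

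**Figure D1:**
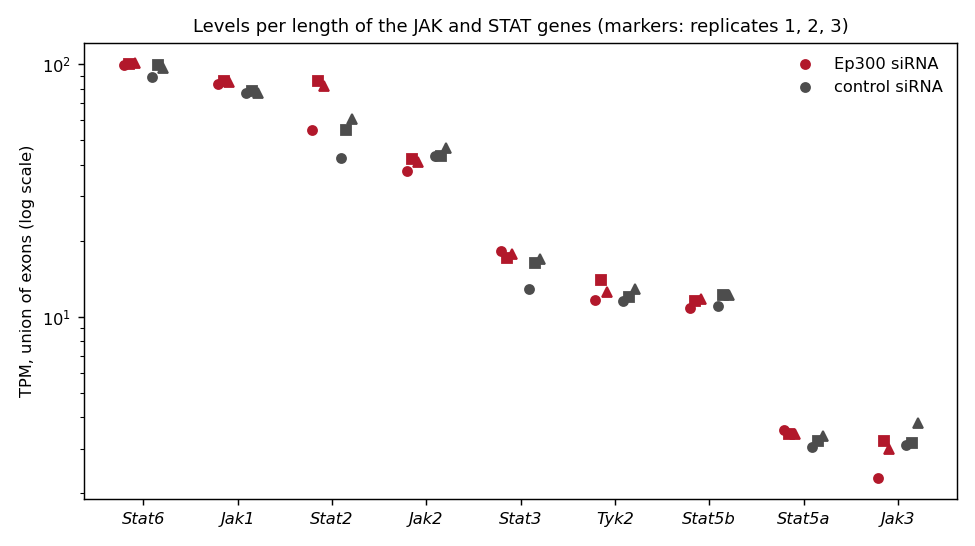
Levels per length of the 9 JAK and STAT genes in each library, as TPM on a log axis, ordered by their mean over 6 libraries. Stat6, Jak1, Stat2 and Jak2 form an upper group between 37.7 and 100.6 TPM, and Stat5a and Jak3 lie lowest, between 2.29 and 3.78 TPM.

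None of the 9 genes passed the test between Ep300 siRNA and control siRNA cells. The test was edgeR's quasi-likelihood test with Benjamini-Hochberg adjustment over 15741 genes, at an adjusted p under 0.05, a threshold that 6.78% of all genes tested passed. Before adjustment 3 of the 9, Jak1, Stat2 and Stat3, had a p under 0.05, as did 22.2% of all genes tested. DESeq2 called 1 of the 9, Jak1, and limma-voom called 0. The median log2 fold change of the 9 was 0.11, beside 0.00 for all genes tested. Positive values were found for 6 of the 9, beside 7737 of all 15741 genes tested. The 3 Ep300 siRNA libraries lay wholly above the 3 control siRNA libraries for 4 of the 9 genes, against 13% of all genes tested, and wholly below for 1, against 14.4%.

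Jak1 was slightly higher after Ep300 siRNA in every library, by less than the test could call. Its level was 240.3, 240.1 and 234.5 CPM in Ep300 siRNA libraries, against 213.0, 217.5 and 206.3 CPM in control siRNA libraries. All 3 Ep300 siRNA libraries lay above all 3 control siRNA libraries. The difference was 1.12-fold, with a log2 fold change of 0.17 ± 0.06 (SE, 95% interval 0.04 to 0.29, edgeR adjusted p = 0.104; DESeq2 adjusted p = 0.0406). Over 17 alternative settings its log2 fold change stayed between 0.13 and 0.19, and the adjusted p ran from 0.0406 to 0.258. The Jak1 gene lies on chromosome 4 from 101152367 to 101265282, minus strand (GRCm38).

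Jak2, the kinase of the GM-CSF, interleukin-3 and interferon-gamma receptors, lay slightly the other way. It had 75.5, 82.2 and 79.3 CPM in Ep300 siRNA libraries, against 83.3, 83.8 and 86.4 CPM in control siRNA libraries. The groups did not overlap, but the gap between Ep300 siRNA replicate 2 and control siRNA replicate 1 was small beside the range within each group. In log2 the difference was −0.10 ± 0.06 (SE, edgeR adjusted p = 0.364), with a 95% interval from −0.23 to 0.03. Tyk2, a kinase of the interferon alpha/beta and interleukin-10 receptors, had 31.9, 37.3 and 33.02 CPM in Ep300 siRNA libraries, against 30.4, 31.7 and 32.8 CPM in control siRNA libraries. The groups overlapped, and the log2 fold change was 0.11 ± 0.07 (SE, edgeR adjusted p = 0.434). Exons of Tyk2 share 554 bases with an antisense RNA gene, 1700084C06Rik, which had 183 to 336 counts. No source used here says whether counting used strand, and without it the pair's reads within those shared bases cannot be told apart. The union of Tyk2 exons has 6865 bases.

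Jak3 was the least precisely measured of the kinases. It had 4.88, 6.69 and 6.16 CPM in Ep300 siRNA libraries, against 6.37, 6.497 and 7.498 CPM in control siRNA libraries. Ep300 siRNA replicates 1 and 3 lay below every control siRNA library, and replicate 2 lay within the control siRNA range. Its log2 difference of −0.19 ± 0.14 (SE, edgeR adjusted p = 0.454) had a 95% interval from −0.49 to 0.11. In 404 exonic bases Jak3 overlaps Insl3 on the same strand, a gene with only 7 to 22 counts per library.

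The makeup of the kinase pool is given as shares of the summed JAK TPM. These shares come from the same counts as the single genes, so their directions are not a separate result. Jak1 was 61.8%, 59.1% and 59.9% of that sum in Ep300 siRNA libraries, against 57.1%, 57.2% and 55.0% in control siRNA libraries. Jak2 was 27.9%, 29.1% and 29.1% in Ep300 siRNA libraries, against 32.1%, 31.7% and 33.1% in control siRNA libraries. Neither share overlapped between the groups. Such shares depend on each other, since a rise in one lowers the rest, and they were not tested. The summed level of the 4 kinases was 140.5 ± 5.06 TPM in Ep300 siRNA cells and 137.2 ± 2.70 TPM in control siRNA cells (SD, n = 3 each).

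**Figure D2:**
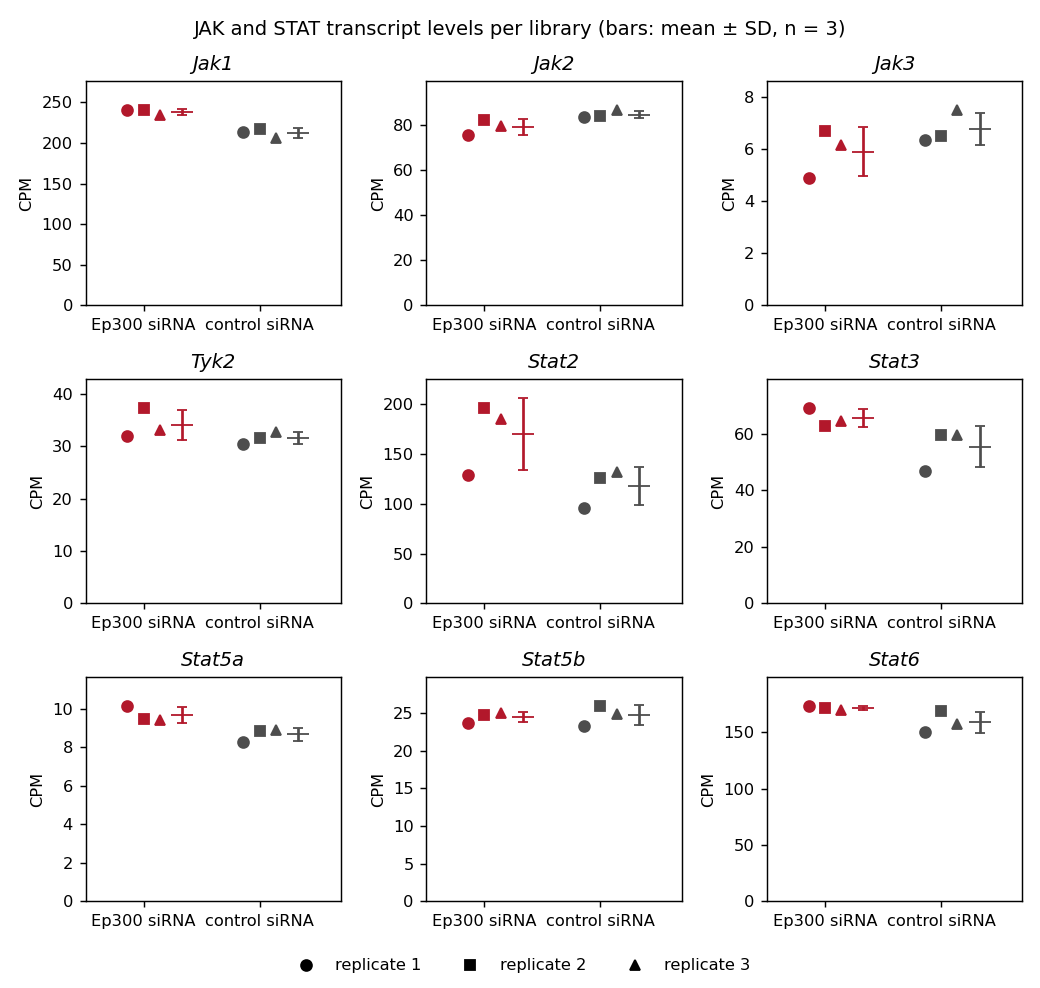
CPM of each JAK and STAT gene per library, Ep300 siRNA left and control siRNA right, each panel with its own axis from 0 (markers: replicates 1, 2 and 3; bars: mean ± SD, n = 3). Stat2 shows the widest spread, and replicate 1 is the lowest library of each group there (128.9 and 96.3 CPM).

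Stat2, which relays interferon signals within ISGF3, had the largest difference of the 9 and the largest spread. It had 128.9, 196.2 and 185.4 CPM in Ep300 siRNA libraries, against 96.3, 125.7 and 132.6 CPM in control siRNA libraries. In each group replicate 1 was the lowest, and Ep300 siRNA replicate 1 fell within the control siRNA range, so the groups overlapped. The difference was 1.44-fold, with a log2 fold change of 0.53 ± 0.15 (SE, 95% interval 0.20 to 0.85, edgeR adjusted p = 0.0552), and it missed the threshold. Without Ep300 siRNA replicate 1, the library farthest out, the log2 fold change was 0.70 and passed (edgeR adjusted p = 0.00443). It was 0.40 without control siRNA replicate 1 (edgeR adjusted p = 0.115). With no filter on low counts it was 0.52 and passed (edgeR adjusted p = 8.73e-11). That setting also took the edgeR adjusted p of Ep300 from 3.62e-05 to 1.07e-41. Stat2 did not pass by DESeq2 (adjusted p = 0.11) or limma-voom (adjusted p = 0.0681). Nor did it pass without Ep300 siRNA replicate 2 or replicate 3 (edgeR adjusted p = 0.181 and 0.156). Without replicate 1 of both groups, a setting chosen after the data were seen, the log2 fold change was 0.57 (edgeR adjusted p = 7.0e-05). With the replicate number as a block in the fit it was 0.52 ± 0.06 and passed (SE, edgeR adjusted p = 0.000752). Whether the replicate numbers pair the libraries is not known.

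Stat2 was also the only gene of the 9 whose promoter window held the letters of an ISRE core, and its stretch is shown for that reason. The windows, from RefSeq (GRCm38.p6), run from 250 bases before to 50 after each annotated start, and all 9 genes had at least 1. They were searched on both strands for GAS (TTCNNNGAA), for its form with 4 spacer bases in place of 3, and for the ISRE core, a pair of GAAA with 2 bases between them. The motifs may overlap each other. An ISRE core was found in 1 of 9 genes, the longer-spacer form in 1 of 9 and GAS in 0 of 9. Of all 27025 genes with a window, 3.99%, 8.01% and 9.55% held them, in that order of motifs. In the Stat2 window both found motifs lie side by side, the ISRE core from 222 bases before the start on the minus strand (chr10:128270276-128270285) and the longer-spacer form from 210 bases before it (chr10:128270288-128270297). Capitals mark both in the 60 bases at chr10:128270251-128270310, plus strand.
Stat2 promoter stretch: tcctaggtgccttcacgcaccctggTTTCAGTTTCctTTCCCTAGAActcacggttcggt
A match is a description of these letters and not a measured binding site.

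The ISGF3 target genes, those that STAT2 and IRF9 are known to switch on, had mostly positive fold changes after Ep300 siRNA, and how many passed the test depended on which libraries were included. Of the 28 genes on this list, all tested, 1 rose, none fell and 27 did not pass by edgeR's adjusted p. Of all genes tested 2.76% rose and 4.02% fell. Positive log2 fold changes were found for 22 of the 28, beside 7737 of all 15741 genes tested. The list's median was 0.19, beside 0.00 for all genes tested. Before adjustment 5 of the 28 had an edgeR p under 0.05, beside 22.2% of all genes tested. The list's median log2 CPM, centred over the 6 libraries, was −0.37 in Ep300 siRNA replicate 1 with 0.33 and 0.27 in the other two, against −0.31 in control siRNA replicate 1 with 0.07 and 0.06 in its partners. Replicate 1 was thus the lowest library within each group, as it was for Stat2, but over all 6 libraries the list was lowest in Ep300 siRNA replicate 1 and Stat2 in control siRNA replicate 1. Without Ep300 siRNA replicate 1 the list's count was 11 that rose, and without any 1 of the other 5 libraries it was 0. Without replicate 1 of both groups 13 rose, by DESeq2 4 rose, and with no filter on low counts 11 rose and 2 fell. Over all genes, 303 of 16237 tested rose without Ep300 siRNA replicate 1, and 533 of 15966 without replicate 1 of both groups. By DESeq2 672 of 30207 rose, and with no filter on low counts 730 of 30207 rose and 991 fell. The gene that rose was Eif2ak2, the double-stranded RNA sensor kinase PKR. It had 505.5, 661.5 and 636.7 CPM in Ep300 siRNA libraries, against 398.7, 468.9 and 474.7 CPM in control siRNA libraries, and the groups did not overlap. Its log2 fold change was 0.43 ± 0.10 (SE, edgeR adjusted p = 0.0300), a call kept only without Ep300 siRNA replicate 1 among the 6 libraries left out in turn, and lost without each of the others (edgeR adjusted p from 0.0521 to 0.115). Irf9, the DNA-binding partner of STAT2, had a log2 fold change of 0.14 ± 0.07 (SE, edgeR adjusted p = 0.269); it was chosen after its value was seen.

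An ISRE core was found in the windows of 12 of the 20 ISGF3 target genes that had one (60%), beside 3.99% of all genes with a window. Eif2ak2 was among them, with the core GAAAACGAAA on the gene's own strand from 18 bases after its start (chr17:78882545-78882554, minus strand), and it also held a GAS, TTCCCAGAA, 178 bases before the start.

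By root-mean-square difference of centred log2 CPM over the 6 libraries, the genes closest to Stat2 among 9178 with a mean of at least 5 CPM were Slfn5, Slfn8 and Dhx58. Slfn5 (difference 0.0885) and Slfn8 (0.0936) are members of the Schlafen family, and Dhx58 (0.0956), on the ISGF3 list, encodes the RNA helicase LGP2, a regulator of RIG-I-like receptors. Slfn8 had 94.6, 147.8 and 138.8 CPM in Ep300 siRNA libraries, against 84.8, 103.2 and 99.7 CPM in control siRNA libraries. Dhx58 had 55.2, 82.2 and 80.2 CPM in Ep300 siRNA libraries, against 49.1, 56.9 and 62.1 CPM in control siRNA libraries. Both shared with Stat2 the low value of replicate 1 in each group and the highest value in Ep300 siRNA replicate 2. They were chosen for likeness to Stat2 over these same libraries, so the shared pattern and direction are not separate results. Of the 3, Slfn5 passed edgeR's adjusted p (0.0263), while Slfn8 (0.103) and Dhx58 (0.118) did not. Schlafen genes of 1 cluster resemble each other, and their reads may be split between copies.

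**Figure D3:**
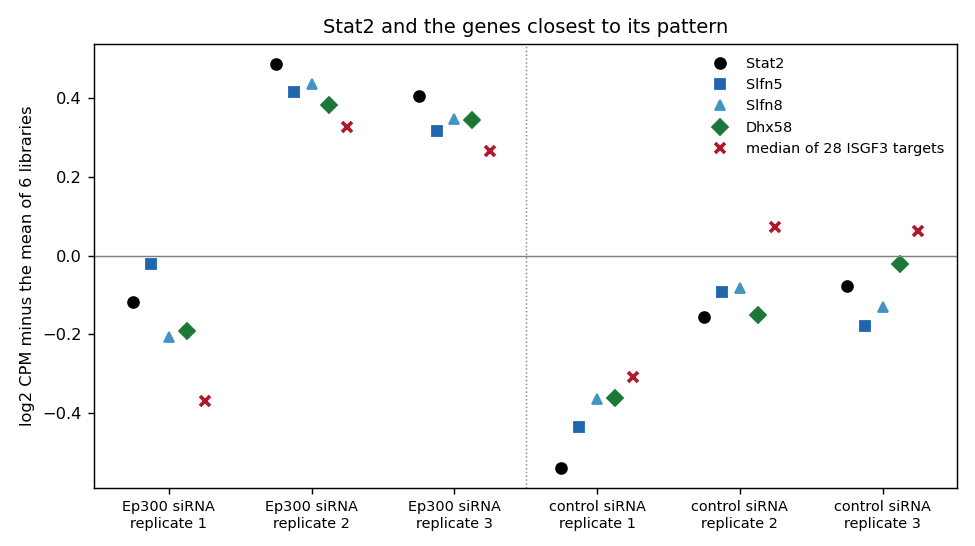
log2 CPM of Stat2, of the 3 genes closest to its pattern and of the median of 28 ISGF3 target genes in each library, each minus its mean over the 6 libraries. In all 5, replicate 1 is the lowest library of each group, and Ep300 siRNA replicates 2 and 3 are the highest of the 6. The 3 genes were chosen for this likeness.

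Stat3, which carries signals of interleukin-6 and interleukin-10, had 69.1, 62.9 and 64.7 CPM in Ep300 siRNA libraries, against 47.0, 59.8 and 59.8 CPM in control siRNA libraries. The groups did not overlap, but control siRNA replicate 1 lay well below the other two. The libraries differed 1.18-fold, or by 0.24 ± 0.09 in log2 (SE, edgeR adjusted p = 0.135), with a 95% interval from 0.05 to 0.44. Without control siRNA replicate 1 it was 0.14 (edgeR adjusted p = 0.241), and without replicate 1 of both groups 0.10 (edgeR adjusted p = 0.439). With no filter on low counts it was 0.23 and passed (edgeR adjusted p = 0.0364). Stat6 had 173.0, 171.0 and 169.9 CPM in Ep300 siRNA libraries, against 150.0, 168.7 and 157.2 CPM in control siRNA libraries. The Ep300 siRNA libraries were the higher ones and lay close together, and control siRNA replicate 2 came within the width of their range. The log2 difference of 0.11 ± 0.06 (SE, edgeR adjusted p = 0.325) had a 95% interval from −0.02 to 0.25, whose upper bound is a 1.19-fold difference. Stat6 shares 40 exonic bases with Nab2 on the opposite strand.

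Stat5a and Stat5b, paralogs that answer GM-CSF and many other cytokines, lie back to back on chromosome 11, with 8626 bases between their GENCODE M21 ends, and Stat3 follows tail to tail with Stat5a, sharing 72 bases on opposite strands. Stat5a had 10.1, 9.49 and 9.40 CPM in Ep300 siRNA libraries, against 8.29, 8.87 and 8.89 CPM in control siRNA libraries. The groups did not overlap, and the log2 fold change was 0.16 ± 0.09 (SE, edgeR adjusted p = 0.376). Stat5b had 23.7, 24.7 and 25.03 CPM in Ep300 siRNA libraries, against 23.3, 25.9 and 24.9 CPM in control siRNA libraries. These groups overlapped fully, with a log2 difference of −0.01 ± 0.07 (SE, edgeR adjusted p = 0.943) and bounds of −0.17 and 0.14 at 95%. Summed to 1 gene, the pair had a log2 fold change of 0.03 ± 0.06 (SE, edgeR adjusted p = 0.817). Stat5b took 75.1%, 77.0% and 77.4% of the pair's counts per kilobase in Ep300 siRNA libraries, against 78.4%, 79.0% and 78.3% in control siRNA libraries. The share was 2.04 percentage points lower after Ep300 siRNA and did not overlap (two-sided exact permutation p = 0.1, the smallest that 3 against 3 libraries allow).

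Reads of these paralogs can be mistaken for each other, since their coding sequences contain an identical run of 324 bases, in exons 7 to 9 of transcript Stat5a-201 and exons 6 to 8 of Stat5b-202. Of all 50-base windows, 15.8% of those of Stat5a-201 and 11.8% of those of Stat5b-202 occur in the other gene. Of the other 7 members, Jak3 shared 8.94% of such windows with Insl3, which it overlaps. The remaining 6 shared none with another gene's annotated transcript in the same orientation. Opposite strands were not searched, so overlaps such as that of Tyk2 with 1700084C06Rik do not enter these shares. The first 45 bases of the identical run are in capitals below after the 15 bases before it, and then its last 45 with the 15 bases after it (GRCm38, the run spanning chr11:100874023-100874983, plus strand, in Stat5a and chr11:100797741-100798701, minus strand, in Stat5b).
Stat5a, start of the run: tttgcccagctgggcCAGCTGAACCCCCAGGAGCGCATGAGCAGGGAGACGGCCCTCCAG
Stat5b, start of the run: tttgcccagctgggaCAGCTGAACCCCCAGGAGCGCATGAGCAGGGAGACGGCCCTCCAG
Stat5a, end of the run: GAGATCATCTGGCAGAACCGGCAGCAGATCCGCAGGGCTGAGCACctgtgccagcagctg
Stat5b, end of the run: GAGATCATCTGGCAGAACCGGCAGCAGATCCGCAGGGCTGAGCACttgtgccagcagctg
No source used here says how reads that match both genes were counted.

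As a pool, the 5 STAT genes summed to 206.3 ± 17.7 TPM in Ep300 siRNA cells and 177.9 ± 16.9 TPM in control siRNA cells (SD, n = 3 each). Stat2 made up 29.4%, 39.2% and 37.9% of that sum in Ep300 siRNA libraries, against 26.8%, 29.6% and 31.9% in control siRNA libraries. Stat6 made up 53.1%, 46.1% and 46.8% in Ep300 siRNA libraries, against 56.2%, 53.4% and 50.9% in control siRNA libraries. Both shares overlapped between the groups at Ep300 siRNA replicate 1. The shares of a sum depend on each other and were not tested.

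**Figure D4:**
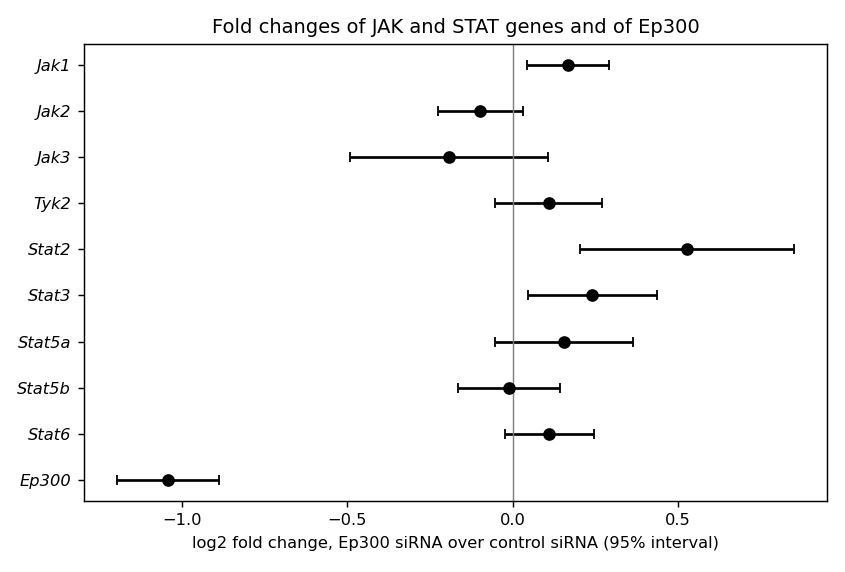
log2 fold change of each JAK and STAT gene and of Ep300, Ep300 siRNA over control siRNA, with 95% intervals from the edgeR fit. The intervals of Jak1, Stat2 and Stat3 leave out 0 before any adjustment for multiple testing, and Ep300 lies far below every member at −1.04.

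Among the receptors that JAKs serve, 1 rose and 3 fell of the 21 tested from a list of 32, with a median log2 fold change of −0.01. Over all genes tested 2.76% rose and 4.02% fell. Il7r, the receptor chain for interleukin-7 and TSLP, which signals through Jak1, had 24.5, 27.7 and 24.9 CPM in Ep300 siRNA libraries, against 57.8, 51.6 and 47.3 CPM in control siRNA libraries. Its mRNA fell to 0.492 of that in control siRNA cells, or −1.02 ± 0.08 in log2 (SE, edgeR adjusted p = 0.000108). Csf2rb, the beta chain shared by the GM-CSF, interleukin-3 and interleukin-5 receptors and bound by Jak2, had 55.9, 50.5 and 54.7 CPM in Ep300 siRNA libraries, against 66.0, 72.8 and 73.7 CPM in control siRNA libraries. Its mouse relative Csf2rb2, specific to interleukin-3, had 34.5, 36.8 and 33.8 CPM in Ep300 siRNA libraries, against 49.7, 53.0 and 54.5 CPM in control siRNA libraries. Both fell, by 0.40 ± 0.07 and 0.58 ± 0.07 on the log2 scale (SE, edgeR adjusted p = 0.0053 and 0.000661), though the pair is nearly identical and reads may be split between them. Csf3r, the G-CSF receptor, rose 1.78-fold, to 5.86 ± 0.456 CPM in Ep300 siRNA cells, against 3.29 ± 0.289 CPM in control siRNA cells (SD, n = 3 each, edgeR adjusted p = 0.00433). For all 4 of these the groups did not overlap, as for 27.5% of all genes tested. The 4 were named because they passed, which favours groups that lie apart.

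The windows of Il7r and Csf2rb2 each held a GAS, as did 6 of the 25 receptor genes with a window (24%, beside 9.55% of all genes with a window). That of Il7r lies 142 bases before the start and is in capitals in chr15:9529984-9530043, minus strand, GRCm38.p6.
Il7r promoter stretch: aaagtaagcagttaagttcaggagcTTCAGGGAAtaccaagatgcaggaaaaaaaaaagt
No measurement of binding was made at it.

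Of the cytokines that act on these receptors, 11 of 24 were high enough to test, and 1 fell, beside 4.02% of all genes tested. The median log2 fold change of the 11 was −0.25, with 3 positive and 8 negative values. Lif, which acts through gp130 and its own receptor, had 1.64, 1.87 and 1.40 CPM in Ep300 siRNA libraries, against 2.79, 2.82 and 2.60 CPM in control siRNA libraries. Its log2 fold change was −0.74 ± 0.18 (SE, edgeR adjusted p = 0.0324), a call lost whichever of the 6 libraries was left out (edgeR adjusted p from 0.0516 to 0.109). Among 18 tested negative regulators 1 fell, beside 4.02% of all genes tested, and the list's median log2 fold change was 0.00. The regulator that fell was Socs3, which blocks JAKs at gp130 receptors. Socs3 had 5.66, 5.71 and 5.72 CPM in Ep300 siRNA libraries, against 11.6, 10.7 and 11.001 CPM in control siRNA libraries, and the groups did not overlap. It is itself a STAT3 and STAT5 target and stands on those lists as well. Of the 18 genes that passed on the 8 pathway lists, 14 had a window, and a GAS was found in 5 of them (Socs3, Il7r, Csf2rb2, Eif2ak2 and Tnfrsf1b) and not in the other 9, Lif, Csf3r, Jun, Fos, Pim1, Mcl1, Egr2, Hif1a and Il1rn. These lists were chosen for links to the pathway. Whether passed or not, 17.6%, 30% and 23.1% of STAT3, STAT5 and STAT6 list genes with a window held a GAS. Of the negative regulators with a window, 2 of 12 held one (16.7%, beside 9.55% of all genes with a window). That of Socs3 lies 154 bases before the start, in capitals in chr11:117969486-117969545, minus strand, GRCm38.p6.
Socs3 promoter stretch: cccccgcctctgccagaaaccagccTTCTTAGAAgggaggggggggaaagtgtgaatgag
Of 19 tested partners and adaptors 1 fell, beside 4.02% of all genes tested, and 18 did not pass. It was Jun, the AP-1 subunit that can bind DNA beside STAT3, at 0.742 of its control level (edgeR adjusted p = 0.00257).

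The targets linked to STAT3, STAT5 and STAT6 that passed the threshold all fell. None of the STAT genes themselves passed, which does not show that they were unchanged. Of 19 tested genes linked to STAT3, 9 fell and none rose, beside 4.02% and 2.76% of all genes tested. Their median log2 fold change was −0.23, and 4 of the 19 had positive values. The genes linked to STAT5 shared 5 with the STAT3 calls, Socs3, Myc, Ccnd1, Pim1 and Mcl1, which were all that fell among 13 tested (median −0.29). Of the 13, 5 fell and none rose, beside 4.02% and 2.76% of all genes tested, and 5 had positive log2 fold changes. Before adjustment 10 of the 13 had an edgeR p under 0.05, beside 22.2% of all genes tested. The same held for 10 of the 19 genes linked to STAT3 and for 3 of 9 tested genes linked to STAT6. Left out in turn, single libraries brought the STAT3 count to 6 (without Ep300 siRNA replicate 2 or control siRNA replicates 2 or 3). They brought the STAT5 count to 2 (without replicate 2 of either group) or 3 (without Ep300 siRNA replicate 1). Calls over the whole table also went down, from 1068 to 698 and 533 without Ep300 siRNA replicates 1 and 2. Without control siRNA replicates 2 and 3 they were 490 and 593. Tnfrsf1b, the second TNF receptor, had 34.0, 31.4 and 37.2 CPM in Ep300 siRNA libraries, against 48.0, 56.6 and 49.4 CPM in control siRNA libraries (log2 fold change −0.59 ± 0.08, SE, edgeR adjusted p = 0.00223). Pim1, a survival kinase, had 7.33, 8.60 and 9.88 CPM in Ep300 siRNA libraries, against 12.2, 12.4 and 12.3 CPM in control siRNA libraries. Its log2 fold change of −0.51 ± 0.11 (SE, edgeR adjusted p = 0.0199) lost its call when Ep300 siRNA replicates 1 or 2 were left out, and likewise for replicates 2 or 3 of control siRNA (edgeR adjusted p from 0.0595 to 0.0766). Myc lost its call without replicate 2 of either group (edgeR adjusted p up to 0.0735). Hif1a and Il1rn were the other STAT3-linked genes with the smallest p, at log2 fold changes of −0.46 ± 0.06 and −0.72 ± 0.12 (SE, edgeR adjusted p = 0.00136 and 0.0053).

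Of 20 genes linked to STAT6, 9 were high enough to test, and 1 of the 9 had a positive log2 fold change (median −0.41). Of the 9, 2 fell and none rose, beside 4.02% and 2.76% of all genes tested. The 2 that fell were Egr2, a zinc-finger factor induced by interleukin-4, at 0.560 of its control level, and Tgm2, a transglutaminase and marker of alternative activation. Tgm2 had 21.9, 19.5 and 19.6 CPM in Ep300 siRNA libraries, against 27.8, 28.9 and 28.2 CPM in control siRNA libraries (log2 fold change −0.48 ± 0.07, SE, edgeR adjusted p = 0.00308). All these target genes are also controlled by other factors, and the lists were drawn up with results on these cells known, so their counts are not independent evidence of a direction. Over the 163 genes of the 8 pathway lists, 125 were tested, of which 2 rose and 16 fell, with a median log2 fold change of 0.00. Of all genes tested 2.76% rose and 4.02% fell.

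**Figure D5:**
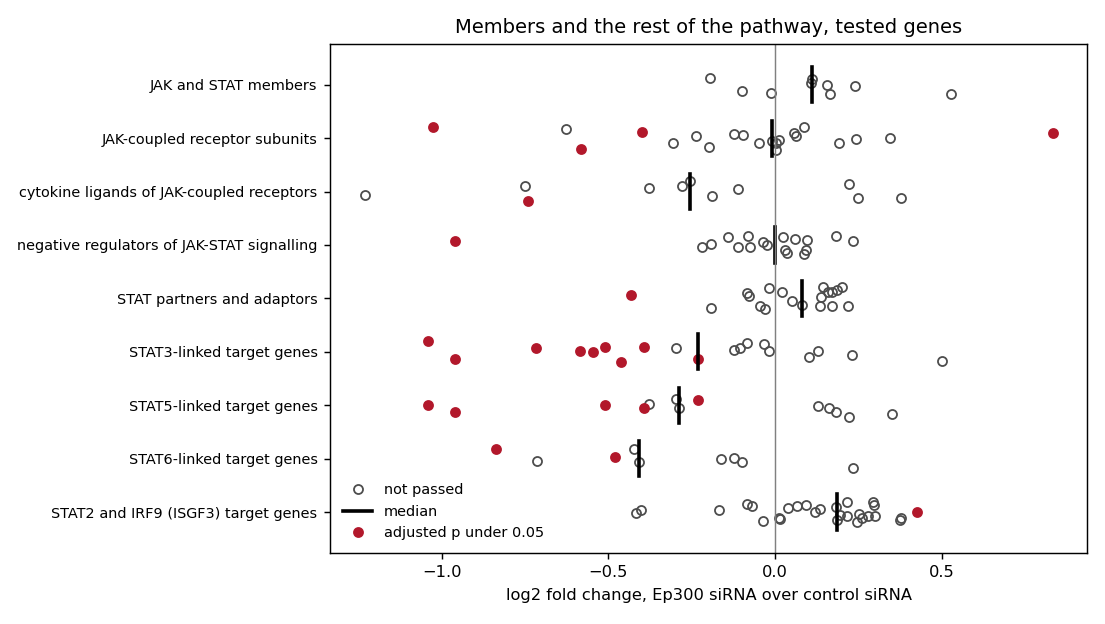
log2 fold changes, Ep300 siRNA over control siRNA, of the 9 members and of the tested genes of 8 pathway lists (filled: adjusted p under 0.05; line: median). No member is filled, and the filled genes of the STAT3, STAT5 and STAT6 lists lie below 0.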

How the data were processed

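RNA from 6 samples of RAW264.7 cells was sequenced as stranded mRNA libraries from 2 µg of total RNA each, per the labels. The authors deposited 1 table of unnormalized counts by gene symbol. The genome build was GRCm38 and the tools were STAR 2.5.3a, fastp 0.23.4, edgeR 3.12.1 and featureCounts, per the submitters' processing notes. No source used here gives strand or multimapping settings. From 79.8% to 80.9% of counts of 1 to 4 were even in each library, so halved counts were tried. PCR reads are not independent molecules.

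Counts were tested with edgeR 4.0.16 (R 4.3.3): filterByExpr, TMM, quasi-likelihood F-test between the siRNA groups, two-sided, Benjamini-Hochberg over 15741 genes. Standard errors come from the fold change and F statistic. Centred log2 CPM used a prior count of 2. DESeq2 1.42.0 and limma 3.58.1 (voom) were alternatives, with other scalings and filters, a replicate block, halved counts and each library left out. The scripts were tested on simulated data. Lengths, coordinates and transcripts are from GENCODE M21, matched for 47229 of 49492 symbols, and promoters from RefSeq. Figures used matplotlib 3.10.9.

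Named are the 9 members, Ep300, up to 4 genes past the threshold with the smallest p from each list (the 2 smallest where none passed), and the 3 genes closest in pattern to the member with the smallest p. Among macrophage markers these were Cd14 and Csf1r, at log2 fold changes of 0.25 and −0.24 (edgeR adjusted p = 0.0535 and 0.0666), and among markers of other cell types S100a8 and Xcr1, at −0.19 and −0.27 (edgeR adjusted p = 0.83 and 0.832). Members and lists were chosen with earlier results of these data known.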

Additional observations from a re-analysis of the deposited data

How the results depend on the processing

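The count of members past the threshold, 0 in the edgeR fit, was 2 with no filter on low counts (Stat2 and Stat3), 1 by DESeq2 (Jak1) and 1 without replicate 1 of both groups (Stat2, a setting added after the data were seen). It was 0 to 1 with each library left out. Genes past it in the whole table, 1068, were 1721 with no filter, a setting that tests 30207 genes, and 490 to 1054 with a library left out. Without scaling factors 316 rose and 788 fell, against 435 and 633 with TMM. Pathway list genes past it, 18, were 36 with no filter and 31 without replicate 1 of both groups. With the longest coding transcript as length, 6 neighbouring pairs of members were apart, not 3; the cause was not tested. The log2 fold change of Stat5b reversed to 0.018 without Ep300 siRNA replicate 1 and to 0.033 without control siRNA replicate 2 (−0.049 to 0.033 over the 6 libraries left out), and that of the marker Xcr1 to 0.13 without Ep300 siRNA replicate 2 (−0.99 to 0.13). Ep300 passed under all 17 alternatives.

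Same-numbered deviations from the group means correlated at 0.09, 0.02 and −0.05 over 15741 genes, and only number 1 correlated best with its own. Correlations over all genes cannot tell whether the numbers pair the libraries for some genes. Stat2 and the median of the ISGF3 list were lowest in replicate 1 of each group. With the replicate block 1 member passed, Stat2 (log2 fold change 0.52 ± 0.06, SE, edgeR adjusted p = 0.000752), beside 1357 of 15741 genes, and of the ISGF3 list 6 rose and 1 fell. With 3 libraries a group, the widest member interval, that of Stat2, spans 0.20 to 0.85, and the members of lowest depth, Jak3 and Stat5a, had 143 to 384 counts per library.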
